A study of Homo sapiens with 8 samples.

Results

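The 14-3-3 family genes YWHAE, YWHAG, YWHAQ, YWHAH, YWHAZ and YWHAB were examined for peaks of the RNA-binding protein RBM45 in wild-type (WT) HEK293T cells. The peaks were selected by position: those listed inside the hg19 span of each gene, on the gene's strand, in the lists of the WT CLIP libraries. They numbered 86 of 210878 entries in replicate 1 and 77 of 65587 in replicate 2, and 32 of the 13758 deposited pairs of overlapping peaks. The genes were chosen from the peak lists themselves, with the shared peaks known, so all peak numbers, positions and fold values below are descriptions without a test. HEK293T is a widely used human cell line derived from embryonic kidney. All 8 libraries of the series came from such cells, WT or METTL3 knockout (Mettl3 KO in the labels), that carried a lentivirus for FLAG-HA-tagged human RBM45 and were exposed to 254 nm ultraviolet light at 300 mJ/cm2 before collection. The tagged protein was therefore supplied by the virus in every group, beside whatever RBM45 the cells make themselves. Each genotype has CLIP libraries, pulled down with an antibody to the HA tag, and size-matched input libraries made with no antibody, with 2 replicates of each. The results rest on the WT CLIP replicates. The input and METTL3 knockout libraries were not analysed here, and nothing in the labels says whether the replicates came from separate cultures.

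14-3-3 proteins are small acidic adaptors that form dimers and hold partner proteins by short phosphorylated stretches, mostly around a phosphoserine or phosphothreonine. Through such partners they act in cell cycle control, kinase signalling, apoptosis and the placing of proteins in nucleus or cytoplasm, and they are abundant in brain and in most cultured cells. Each member is made from its own gene: YWHAE gives the epsilon protein, YWHAG gamma, YWHAQ theta (also called tau), YWHAH eta, YWHAZ zeta and YWHAB beta. The remaining human member, sigma from SFN, was not analysed here. RBM45 carries RNA recognition motifs and is known from protein inclusions in amyotrophic lateral sclerosis, and METTL3 is the enzyme that places most m6A, a methyl mark on adenosine, in messenger RNA. In CLIP the light joins protein to the RNA it touches, and the RNA fragments pulled down with the protein pile up as peaks. A high number of peaks in a gene can follow its RNA level as well as binding. No expression or input values were used here, so the part of RNA level in any of the numbers below was not tested.

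YWHAE carried most of the peaks of the family in both replicates. It had 52 peaks in replicate 1 and 48 in replicate 2. These were 60.5% and 62.3% of all peaks at the 6 genes, on a locus that makes up 26.8% of their summed length. YWHAG followed with 12 and 15 peaks. YWHAQ had 9 and 6, YWHAH 7 and 3, YWHAZ 3 and 4, and YWHAB 3 and 1. Of the YWHAH peaks, 1 and 2 were also listed on the opposite strand and cannot be given to YWHAH alone. All YWHAH counts and densities here include them. YWHAE thus stood far above the rest in each list. YWHAG and YWHAQ came next in both, YWHAH and YWHAZ changed places between the lists, and YWHAB was last or tied for last.

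**Figure D1:**
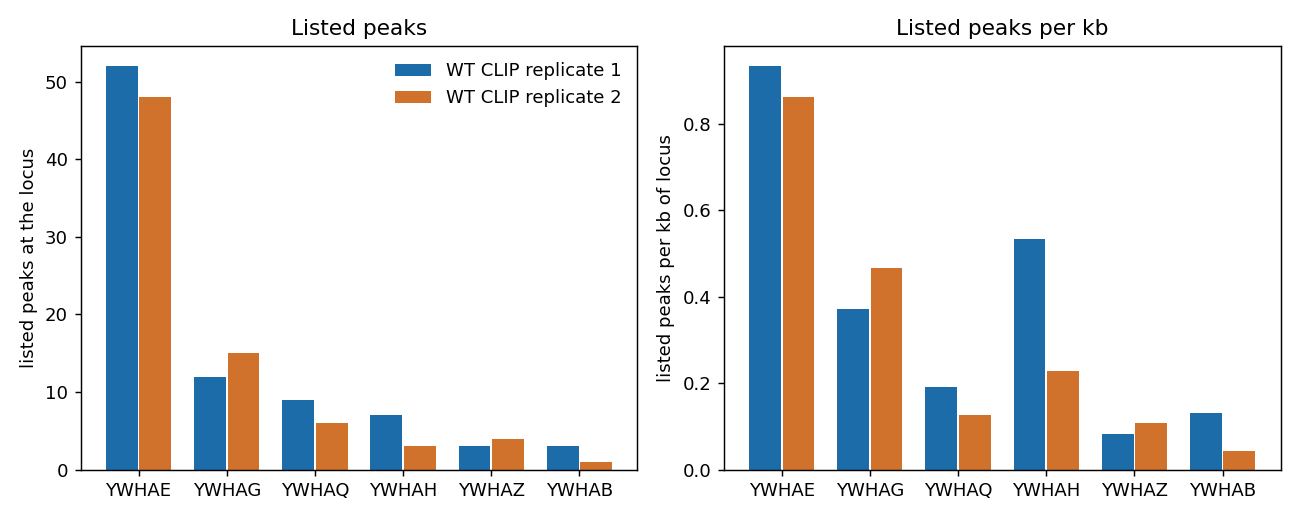
The left bars give the number of listed peaks at each of the 6 loci and the right bars the same number per kb of locus, for WT CLIP replicate 1 (blue) and replicate 2 (orange). YWHAE, with 52 and 48 peaks, is the tallest in both panels and both replicates, and YWHAH is second per kb in replicate 1 but not in replicate 2.

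Locus length did not change the place of YWHAE at the top. Per kb of locus it carried 0.933 peaks in replicate 1 and 0.861 in replicate 2. YWHAH, the shortest locus at 13.1 kb, had 0.534 and 0.229 peaks per kb, and YWHAG, at 32.2 kb, had 0.372 and 0.465. The order of YWHAH and YWHAG therefore differed between the replicates, and with 1 list per replicate these neighbours were not told apart. YWHAQ had 0.191 and 0.128 peaks per kb, YWHAB 0.131 and 0.0438, and YWHAZ 0.0814 and 0.108. YWHAB and YWHAZ also changed places between the lists. Relative to the length of each list, YWHAE had 0.443 peaks per kb for every 100000 entries listed in replicate 1 and 1.31 in replicate 2 (mean 0.878 ± 0.616 SD, n = 2). The spread between the replicates was thus large on this scale, although YWHAE was the highest of the 6 in each.

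The replicate 2 list as a whole was much shorter than the replicate 1 list. This was not so at the 6 loci together, most of whose peaks lay at YWHAE, but the genes differed. Over all entries the ratio of replicate 2 to replicate 1 was 0.311. At the 6 loci together it was 0.895, at YWHAE 0.923, and at YWHAG, where replicate 2 listed more peaks than replicate 1, 1.25. It was 1.33 at YWHAZ and 0.667 at YWHAQ, while YWHAH (0.429) and YWHAB (0.333) lay nearer to the whole lists. All but YWHAE and YWHAG rest on fewer than 10 peaks a list. The read depth of each library is unknown, and its part in these ratios was not tested. When the replicate 1 list was reduced to its 65587 strongest entries, YWHAE kept 45 of its 52 peaks and YWHAG 5 of its 12.

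To place the loci among all of the genome that carries peaks, each strand was divided into a fixed grid of windows as long as the locus. For YWHAE this gave 29744 windows with at least 1 peak in either list, with a median of 4 peaks in replicate 1 and 1 in replicate 2. Among them 181 windows (0.609%) held at least 52 replicate 1 peaks, 12 (0.0403%) held at least 48 replicate 2 peaks, and 1 held at least 27 deposited pairs. For YWHAG, 10.4% of windows of its length held at least 12 replicate 1 peaks and 1.03% at least 15 replicate 2 peaks. For YWHAH the shares were 10.5% and 10.9%, so that it stood about as high as YWHAG in replicate 1 but not in replicate 2. They were 23.7% and 10.0% for YWHAQ, 57.4% and 14.6% for YWHAZ, and 49.4% and 46.8% for YWHAB. Many windows thus held as many peaks as YWHAB in both lists and as YWHAZ in replicate 1. A grid window can divide a gene that a locus takes whole, so these shares place the loci only roughly.

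Peaks of the replicates fell on the same bases at YWHAE more often than in the lists as a whole. Sharing meant at least 1 base in common on the same strand. Of the 48 replicate 2 peaks at YWHAE, 30 overlapped a replicate 1 peak, which is 62.5% (95% exact Clopper-Pearson interval 47.4 to 76.0, for counting error only), beside 28.8% of all replicate 2 entries. Seen from the longer list, 29 of 52 replicate 1 peaks overlapped replicate 2, or 55.8% (41.3 to 69.5), beside 8.88% of all replicate 1 entries. Since YWHAE was picked for its shared peaks, nothing is read from this excess. At the other 5 genes 5 of 29 replicate 2 peaks (17.2%) and 5 of 34 replicate 1 peaks (14.7%) overlapped. The whole lists had 28.8% and 8.88%. With so few peaks, the shares at these 5 genes are not told apart from those of the lists.

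The deposited pairs followed the same division. These are the pairs in which the overlap covers at least 50% of the replicate 1 peak, a rule that gave all 13758 pairs when applied to the lists. YWHAE held 27 of the 32 pairs at the 6 genes (84.4%), YWHAG 3, and YWHAQ and YWHAH 1 each, while YWHAZ and YWHAB held none. The peaks of the YWHAH pair were also listed on the opposite strand. Over the whole lists 6.52% of replicate 1 entries and 20.9% of replicate 2 entries stood in a pair. The 4 YWHAZ peaks of replicate 2 lay 2.957 to 9.724 kb from the 5′ end of the locus, and the 3 of replicate 1 lay 18.694 to 25.868 kb from it. The nearest peaks of the replicates were thus 8940 bases apart there. These numbers are small: at YWHAZ, 0 shared of 4 replicate 2 peaks has an exact interval that reaches up to 60.2%.

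Peaks lay along nearly the whole of YWHAE, chromosome 17, 1247834 to 1303556 on the minus strand, rather than at its ends. In replicate 1 they ran from 2.539 to 55.503 kb from the 5′ end, and in replicate 2 from 0.913 to 55.507 kb. Cut at its midpoint, the locus had 31 of 52 and 34 of 48 peaks on the 5′ side. The median distance between neighbouring peaks was 483 bases in replicate 1 and 488 in replicate 2, and 47 and 45 peaks had a neighbour of the same list within 1 kb. The peaks were narrow, with a median width of 32 and 33 bases and a range of 30 to 113 and 30 to 102, so that together they covered 3.92% and 3.66% of the locus. The first 5 kb held 7 and 10 peaks, the stretch from 15 to 20 kb 8 and 5, and that from 40 to 45 kb 9 and 6. The densest window of 5 kb, counted over both lists, started at 1297445 and held 9 replicate 1 peaks, 13 replicate 2 peaks and 7 pairs, all between 2.539 and 6.061 kb from the 5′ end.

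**Figure D2:**
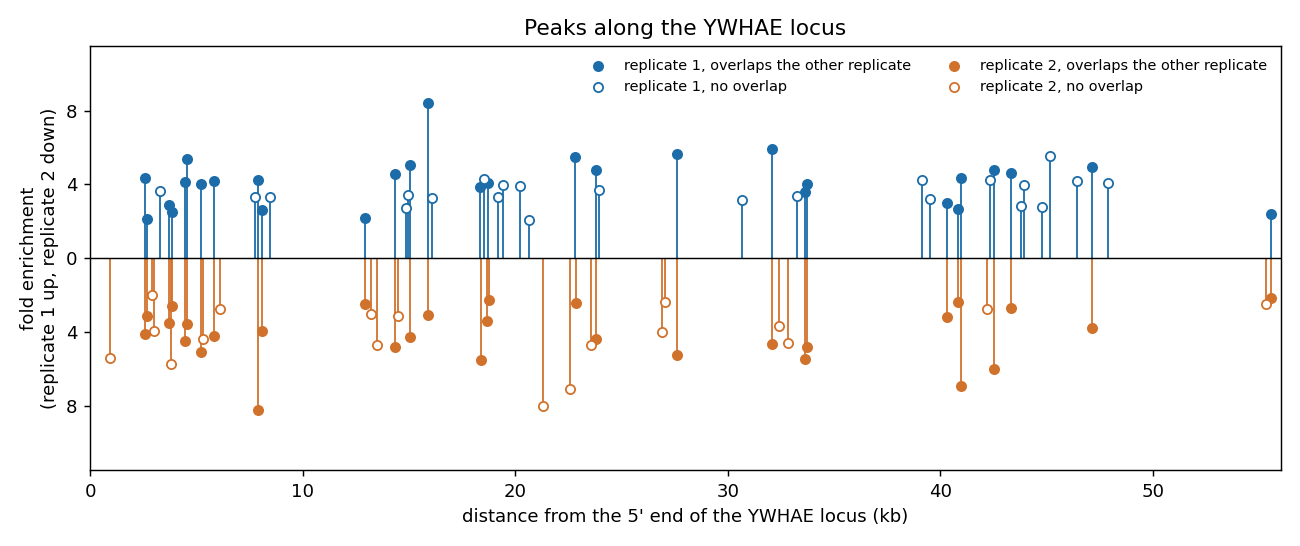
Each stem is a listed peak along YWHAE, placed by its distance in kb from the 5′ end of the locus, with its fold enrichment upward for replicate 1 (blue) and downward for replicate 2 (orange). Filled heads overlap a peak of the other replicate and open heads do not. Both lists are empty between 47.893 and 55.287 kb, and the last peaks of both have folds of 2.14 to 2.46.

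Some stretches of YWHAE were empty in both lists. Neither had a peak between 8.483 and 12.884 kb, between 33.757 and 39.138 kb or between 47.893 and 55.287 kb from the 5′ end. The last of these, at 7.394 kb, was the longest of those stretches, and beyond it the last 1 kb of the gene held 1 peak of replicate 1 and 2 of replicate 2. Other stretches were empty in 1 list but not in the other. Replicate 2 had no peak from 1256440 to 1260225, where replicate 1 had 5. Replicate 1 had none from 1275973 to 1279588, where replicate 2 had 2.

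This 3′ terminal position had the highest score of all YWHAE peaks in replicate 1 but one of the lowest folds. The replicate 1 peak, 1247977 to 1248053, had a −log10 p of 23.2 and a fold enrichment over the peak caller's background of 2.39, and its replicate 2 partner had 22.0 and 2.14. A further replicate 2 peak at 1248229 to 1248269 had a fold of 2.46 and no counterpart. The highest fold of replicate 1, 8.41 with a −log10 p of 22.3, was at 1287637 to 1287669, 15.887 kb from the 5′ end, and its partner in replicate 2 had a fold of 3.10. In replicate 2 a single peak led by both fold (8.25) and −log10 p (30.7). It covered 1295624 to 1295715, 7.841 kb from the 5′ end, and the replicate 1 peak with exactly the same first and last base had a fold of 4.26 and a −log10 p of 19.3. The position was therefore the same to the base in both lists, while the folds were nearly 2 times apart. By −log10 p this peak ranked 136 among all replicate 2 entries, and the 3′ terminal peak ranked 670 among all replicate 1 entries.

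The folds at YWHAE were moderate. Their median was 3.96 in replicate 1 (range 2.09 to 8.41) and 3.96 in replicate 2 (2.02 to 8.25), beside medians of 3.12 and 3.81 over the whole lists. Of the YWHAE peaks, 40 of 52 lay above the list's median in replicate 1 and 26 of 48 in replicate 2. Folds above 5 were found in 7 of 52 and 11 of 48 peaks at YWHAE, and in 12 of 86 and 19 of 77 at the 6 genes, beside 9.16% and 18.0% of all entries. The median −log10 p at YWHAE was 7.79 and 8.64, against 3.70 and 4.24 over the whole lists. YWHAE thus held many peaks of moderate fold and small p rather than a few of high fold. In replicate 1, YWHAE peaks that overlapped replicate 2 had a median fold of 4.17 and the others 3.41. In replicate 2 the medians were 4.03 and 3.96.

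Among the YWHAE pairs, the 10 with the highest lower fold, which were the ones to be named, lay between 4.438 and 42.501 kb from the 5′ end. The first, at 1275935 to 1275972 and 27.584 kb from the 5′ end, had folds of 5.63 in replicate 1 and 5.23 in replicate 2. It was the one pair at the 6 genes in which both folds exceeded 5, where 13.9% of all deposited pairs do. Pairs at 1261026 (4.77 and 5.99), 1271480 (5.93 and 4.65), 1289191 (4.57 and 4.82) and 1279752 (4.79 and 4.40) came next, each named by the start of its replicate 1 peak. In all 5 of these pairs the folds lay within a factor of 1.5. The others were the pairs starting at 1262561 (4.34 and 6.91), 1288476 (5.04 and 4.27), 1295624 (4.26 and 8.25), 1297708 (4.17 and 4.23) and 1299088 (4.14 and 4.52).

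**Figure D3:**
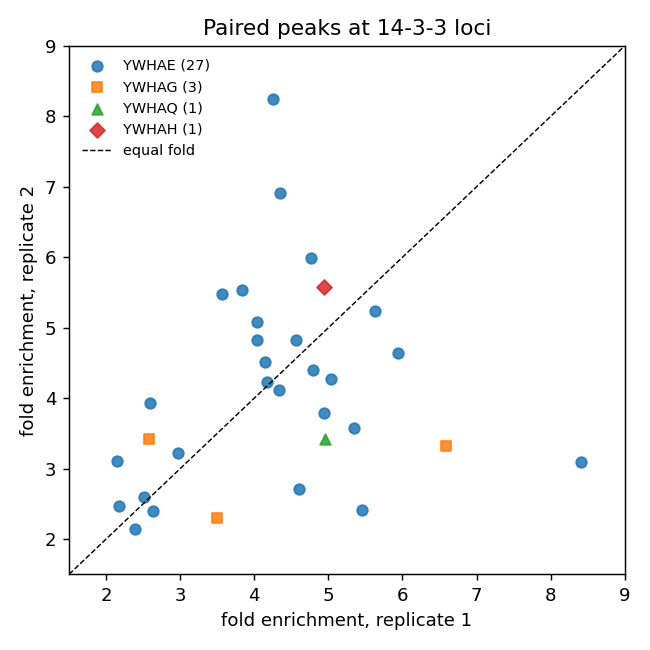
Each point is a deposited pair of overlapping peaks at a 14-3-3 gene, with the fold enrichment in replicate 1 on the horizontal axis and in replicate 2 on the vertical axis, and the dashed line marks equal folds. Of the 32 pairs, 15 were higher in replicate 1 and 17 in replicate 2, and the pairs with the largest plain difference are the YWHAE pairs of 8.41 against 3.10 and of 4.26 against 8.25, while by the ratio of the folds the YWHAE pairs of 8.41 against 3.10 and of 5.46 against 2.41 lead.

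Folds of paired YWHAE peaks were higher in replicate 1 about as often as in replicate 2. Of the 27 YWHAE pairs, 12 had the higher fold in replicate 1 and 15 in replicate 2. The folds lay within a factor of 1.5 in 20 pairs and within a factor of 2 in 25. Their Spearman correlation across the 27 pairs was 0.234, beside 0.318 across all deposited pairs. The points share 2 libraries and 1 transcript, and the value is a description. The starts of the paired peaks lay within 10 bases of each other in 23 pairs and the ends in 24. The pairing rule itself asks for closely placed peaks where they are this narrow, so nothing is read from this closeness.

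Some of the stronger YWHAE peaks were listed in 1 replicate. The replicate 2 peaks at 1282216 to 1282246 (fold 8.02, −log10 p 20.6) and 1280983 to 1281026 (fold 7.10, −log10 p 17.3) had no overlap in replicate 1, and neither did the replicate 2 peak nearest to the 5′ end, at 1302564 to 1302643 (fold 5.40). Conversely, replicate 1 listed a peak at 1258404 to 1258434 (fold 5.54) that overlapped none of replicate 2. These 4 were named after their values were seen. The 18 unmatched replicate 2 peaks of YWHAE lay a median of 242.5 bases from the nearest replicate 1 peak, and 7 of them lay within 200 bases of one. Neighbouring replicate 1 peaks of this gene were themselves a median of 483 bases apart, and such distances are not given for the whole lists. Nothing is therefore read from this nearness. The overlapping share was 62.5% of replicate 2 peaks at YWHAE, beside 28.8% of all replicate 2 entries.

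YWHAG, chromosome 7, 75956116 to 75988342 on the minus strand, was the member with the next most shared positions. Its pairs began at 75968462 (folds 6.59 in replicate 1 and 3.32 in replicate 2), 75967986 (3.50 and 2.30) and 75979337 (2.57 and 3.42). The first of them was the peak of highest fold in replicate 1, whereas in replicate 2 that was a peak with no counterpart at 75972103 to 75972143 (fold 6.78, −log10 p 16.4). The replicates thus differed in their leading peak at this gene. The 15 replicate 2 peaks gathered between 8.862 and 20.306 kb from the 5′ end, apart from 1 at 29.560 kb, and the 12 replicate 1 peaks ran from 1.136 to 29.848 kb. The densest 5 kb, from 75975462, held 4 and 8 peaks but 1 pair. Median folds were 3.34 and 4.06, on the high side of the list's median in 7 of 12 and 10 of 15 peaks.

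**Figure D4:**
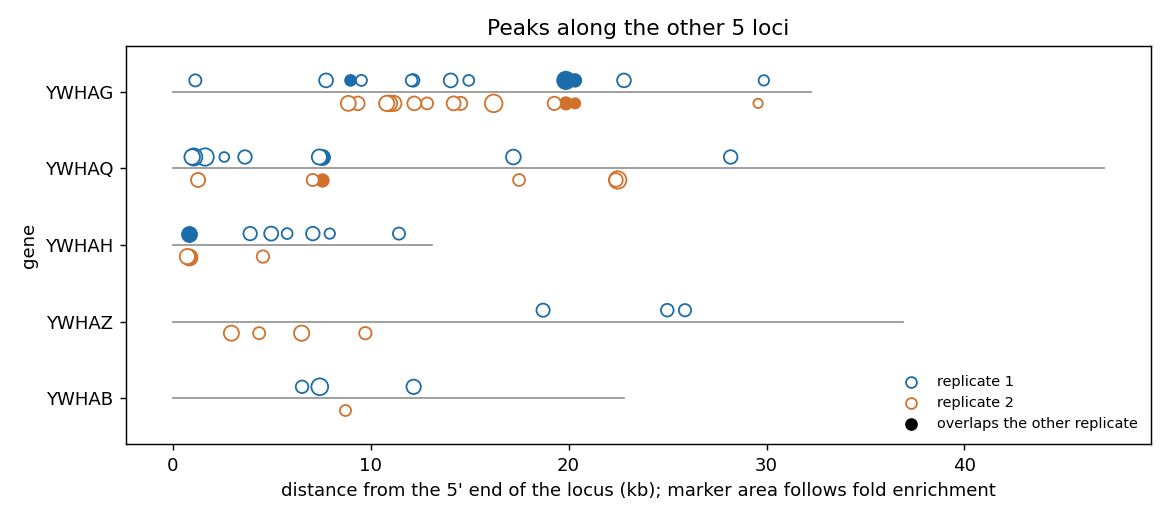
Each circle is a listed peak at the loci other than YWHAE, placed by its distance in kb from the 5′ end of the locus (grey line), above the line for replicate 1 (blue) and below it for replicate 2 (orange), with an area that follows its fold. Filled circles overlap a peak of the other replicate, which occurs at YWHAG, YWHAQ and YWHAH, and the YWHAZ peaks of the replicates lie in separate stretches.

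YWHAQ, chromosome 2, 9724101 to 9771143 on the minus strand, had its peaks toward the 5′ end. In replicate 1, 7 of 9 lay in the first of 3 equal parts of the locus, and 5 of them within 3.642 kb of the 5′ end, led by a peak at 9769464 to 9769530 with a fold of 6.60. Replicate 2 had 1 peak in that stretch, at 9769839 to 9769868 (fold 4.36), which overlapped none of them, and its strongest was at 9748629 to 9748693 (fold 6.69), 22.450 kb from the 5′ end. The single pair, at 9763548 to 9763607, had folds of 4.95 and 3.42, and its peaks differed by 1 base. Neither list had a peak in the 18.83 kb nearest to the 3′ end.

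YWHAH, chromosome 22, 32340479 to 32353590 on the plus strand, had a pair close to its 5′ end. The replicate 1 peak at 32341303 to 32341334 (fold 4.94) and the replicate 2 peak at 32341307 to 32341343 (fold 5.58) lay 0.824 and 0.828 kb from the 5′ end, and each had the highest fold of the gene in its list. A wider replicate 2 peak of 94 bases, with a fold of 5.10, lay just before its neighbour, at 32341181 to 32341274. These 3 peaks were the ones at any of the 6 loci that were also listed on the opposite strand, with the same name and values. In RefSeq (GRCh38.p14), YWHAH overlaps YWHAH-AS1, a noncoding antisense gene, at its 5′ end, so these peaks cannot be given to either gene. The other 6 replicate 1 peaks of YWHAH had folds of 2.38 to 4.29 and no counterpart.

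YWHAZ and YWHAB had the fewest peaks. At YWHAZ, chromosome 8, 101928753 to 101965623 on the minus strand, the strongest was the replicate 2 peak at 101959088 to 101959118 (fold 5.11). Replicate 1 reached 3.81, at 101946887 to 101946929. YWHAB, chromosome 20, 43514344 to 43537161 on the plus strand, had replicate 1 peaks with folds of 3.43, 6.16 and 4.51 and a single replicate 2 peak with a fold of 2.67, at 43523041 to 43523081. That peak lay 1247 bases from the nearest replicate 1 peak. The fold of 6.16, at 43521764 to 43521794, was matched by none in replicate 2.

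Among the peaks that were listed, the boundaries of the loci decided no count. Extending each by 5 kb at both ends added no peak to either list. The nearest peak of the same strand outside a locus was 26.832 kb upstream of YWHAE in replicate 1 and 29.339 kb in replicate 2, and the closest at any of the 6 loci was 6.006 kb downstream of YWHAB in replicate 1. Each peak name carries a number, and within each locus the numbers in a list ran on without a gap, for instance from 99272 to 99323 for the 52 replicate 1 peaks of YWHAE. The lists as a whole are not gapless if numbering starts at 1. At YWHAZ the numbers reached 252179 in replicate 1, which lists 207069 peaks, and 69212 in replicate 2, which lists 64517. Some numbered peaks would then be missing from both lists, and whether any lay beside a locus is unknown. Each peak of a gene was also repeated in the same number of rows: 2 for YWHAE and YWHAB, 6 for YWHAZ, and 1 for YWHAQ, YWHAG and YWHAH. At each of the 6 genes this number of rows equals the gene's own number of curated RefSeq transcripts (GRCh38.p14). The sources used here do not say why rows were repeated or how peaks were given a strand. If strand and rows were taken from gene models, the absence of peaks on the opposite strand or beside a locus would say nothing about reads there.

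Exons could not be placed, since no hg19 annotation was used, but their lengths limit how many peaks they can hold. The coding transcripts of YWHAE in GENCODE 29 (GRCh38) have 7 merged exons that sum to 2244 bases. Wherever such stretches were laid on the locus, they could touch at most 19 of the 52 replicate 1 peaks and 23 of the 48 replicate 2 peaks. At least 33 and 25 YWHAE peaks therefore lay in introns of these transcripts, provided that exon lengths are the same in hg19. For YWHAG, with 2 merged exons of 3750 bases in all, the least number outside exons was 6 of 12 and 6 of 15. For the other genes the limit was 3 of 7 YWHAH peaks in replicate 1 and otherwise 0, which says nothing of where those peaks lie. RefSeq names 7 pseudogenes of YWHAE, 10 each of YWHAZ and YWHAQ and 2 of YWHAB, and none of YWHAG and YWHAH. Most such copies come from spliced RNA, so peaks in exons may share reads with them. The sources used here do not say how reads with several matches were counted.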

How the data were processed

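Peaks came from WT CLIP replicates 1 and 2, and the deposited pair list, kept under an input record, holds overlapping peaks of both. Per the submitters' processing notes the build was hg19 and the tools included deepTools 3.2.1, HOMER 4.11.1, MACS2 2.1.1.20160309, Novoalign 3.09.00 and bedtools 2.25.0, no roles given. The deposited values are, per peak, a fold (the ratio of the signal to the caller's background), an unadjusted −log10 p, and a score, which is that −log10 p times 10 without its decimals, with an upper p of 0.005 and the library in each peak name, so peaks were called per library. The sources used here do not say whether input served as control. Fold and −log10 p belong to single peaks, as the authors gave them, and describe or rank peaks within a list. The 8 count columns of the authors' count table match no sample label and were not used, so the planned edgeR test was not run and depth is unknown.

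Repeated rows (467329 and 148958) were reduced so that each peak stands once on a strand, called an entry. Positions count from 1. Loci came from hg19 spans given for this work, and overlap needs 1 shared base on the same strand. Members and lists were chosen with earlier results of these data known. Named were, per gene, all pairs up to 10 (otherwise the 10 with the highest lower fold), the peaks of highest fold and score, and the densest 5 kb. Overlap counting was tested on simulated data against a direct search. Intervals and shares treat peaks as independent. Sequences and hg19 annotation were not used here. Tools were matplotlib 3.10.9, scipy 1.17.1, pandas 2.3.3 and numpy 2.4.6 under Python 3.11.15.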

Additional observations from a re-analysis of the deposited data

How the results depend on the processing

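Values were recomputed with strand ignored, peaks wholly inside the locus, replicate 1 cut to the length of replicate 2, the upper 50% of each list by −log10 p, loci extended by 5 kb, other overlap rules and each replicate alone. Counting every deposited row and a minimum −log10 p of 5 were added after seeing the data. Each replicate alone aside, 99 of 116 recomputed values stayed within 1.5 times the reported count, the interval of a share or, for a median fold, the spread of the peaks, and 17 moved. Ignoring strand, asking for peaks wholly inside the locus and extending it by 5 kb changed no value. For strand this could not be otherwise in the counts. The only opposite-strand entries at the 6 loci, 1 and 2 at YWHAH, repeat peaks already counted, and each such peak was counted once. A median fold was judged against the spread of the very peaks that its subset came from. The tally is therefore a description and no measure of stability. With every row counted, repeats included, the peaks at the 6 loci rose from 86 to 156 in replicate 1 and from 77 to 146 in replicate 2, since rows repeat by gene. Asking for both folds above 5 left 1 of 32 pairs. Peaks per kb for every 100000 entries at the 6 loci, mean 0.381, were 0.196 to 0.565 with either replicate left out. At YWHAE they went from 0.878 to 0.443 without replicate 2, at YWHAG from 0.443 to 0.177, at YWHAZ from 0.102 to 0.0386 and at YWHAQ from 0.143 to 0.0907. Without replicate 1 YWHAE stood at 1.31, YWHAG at 0.710 and YWHAZ at 0.165. With 2 replicates the mean always moves by less than the SD, so these values say nothing of stability. The share of replicate 2 peaks shared at the 6 loci, 45.5%, was 39.0% to 45.5% under the 5 alternatives, and at YWHAE, 62.5%, it was 52.1% to 62.5%. The whole list ran from 18.6% to 33.1% under the same alternatives. The YWHAG count of replicate 1 fell from 12 to 5 in the reduced list, and that of YWHAH from 7 to 4. No paired analysis was possible because no result comes from a test, and the columns of counts match no labelled sample, so edgeR with a replicate block, DESeq2 and other count settings were not run. A locus with fewer than 10 peaks a list gives shares with wide intervals.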
